A study of Mus musculus with 4 samples.

Results

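The inflammasome and innate sensor genes are 9 genes picked by symbol from the normalized expression table of jejunal epithelium: Nlrp6, Nlrc4, Pycard, Casp1, Casp4, Il18, Nod1, Nod2 and Aim2. All 9 were found, among 22456 symbols. RNA-seq was made of 4 libraries of adult jejunal epithelium from mice of a mixed 129xC57/Bl6xSvJ background. The 2 control libraries came from Cre- animals, and the other 2 from animals labelled as Hnf4a;Cdx2 double knockouts, in which Cre was to recombine conditional alleles of both transcription factor genes. Every mouse of both groups received 1 mg of tamoxifen on each of 5 days. The labels call the replicates independent biological ones, and the sources used here do not name the promoter that drives Cre, the deleted exons or the number of animals per library. Values are FPKM, reads scaled to transcript length and library size, so levels of different genes can be set side by side. The comparison asked which genes differ when both factors are targeted together.

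Innate sensors of the cytosol detect microbial products or damage inside a cell. NLRP6, NLRC4 and AIM2 are sensors that can assemble inflammasomes, in which the adaptor ASC (the product of Pycard) and caspase-1 (Casp1) mature the cytokine interleukin-18 (Il18). Mouse caspase-11, the product of Casp4, is activated by cytosolic lipopolysaccharide, while NOD1 and NOD2 detect fragments of peptidoglycan and signal to NF-kappaB through the kinase RIPK2. In the gut lining the epithelial cells themselves express several of these genes, and interleukin-18 is made there without prior stimulation.

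As a check of the labels, Hnf4a stood at 156 and 202 FPKM in controls and at 31.6 and 48.2 in libraries labelled double knockout (limma, adjusted p = 0.0147). Cdx2 stood at 70.9 and 65.2 against 159.8 and 161.0 FPKM (limma, adjusted p = 0.0150), the opposite of what its label states, and a gene-level value also covers exons outside a deleted part. For that reason the mutant libraries are named by their label below, and each direction given for them rests on that label. Limma called 1041 of 10883 genes tested at an adjusted p under 0.05, or 9.57%, with 410 higher (3.77%) and 631 lower (5.8%). With FPKM estimated for each library alone the split was 482 higher and 451 lower, and the median log2 fold change of all genes was 0.17 against 0.02. The files hold no read counts. Steps in the lowest values place the depth of control replicate 2 at 68.5%, and of the 2 libraries labelled double knockout at 65.2% and 49.8%, of that of control replicate 1. The 8 epithelial markers summed to between 7358 and 9829 FPKM per library, with Krt8 the most abundant. Among them Epcam and Vil1 fell, Krt19 rose and the other 5 were not called (limma, adjusted p = 0.02999, 0.0411 and 0.0150 for the first 3). In such bulk samples fewer cells of a type and less RNA per cell cannot be told apart.

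Among the 9 genes, Nlrp6 fell and Aim2 rose in libraries labelled double knockout. Nlrp6 went from a mean of 77.2 ± 1.29 to 12.2 ± 6.50 FPKM and Aim2 from 1.10 ± 0.0446 to 5.60 ± 2.12 (SD, n = 2 each). The filter, a 4-library mean of 1 FPKM or more, left 7 of the 9 genes for testing. Of these 7, 1 was called lower and 1 higher by limma, beside 9.57% called of all genes tested. The other 5 tested genes, Nlrc4, Pycard, Casp1, Casp4 and Il18, were not called, and Nod1 and Nod2 lay under the filter. The median log2 fold change of the 7 was 0.03, against 0.02 for all genes tested. Groups did not overlap in 5 of the 7, beside 60.7% of all genes tested. In 3 the mutant libraries lay higher (31.2% of all genes tested) and in 2 lower (29.5%).

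The 250 bases ahead of the transcription start of the 2 called genes are shown because these are the genes whose levels passed the test. They come from RefSeq, build GRCm38.p6, while the expression files use mm9. Nlrp6 lies on chromosome 7 (148106801 to 148115091, mm9), and its upstream window is chr7:140920652-140920901 on the plus strand of GRCm38.p6. Aim2 lies on chromosome 1 (175350735 to 175396167, mm9), and its window is chr1:173420354-173420603, also on the plus strand. Capitals mark matches to CAAAGTC, the core of the HNF4 recognition sequence, or to TTTAT, the core of the CDX recognition sequence, on either strand. Only these exact runs of letters were searched for, so other forms of either recognition sequence are not marked.
Nlrp6: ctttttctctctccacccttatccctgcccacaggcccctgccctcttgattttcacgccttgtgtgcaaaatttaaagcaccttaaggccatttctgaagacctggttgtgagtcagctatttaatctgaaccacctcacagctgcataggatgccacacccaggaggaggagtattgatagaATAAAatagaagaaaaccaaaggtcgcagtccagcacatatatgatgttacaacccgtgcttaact
Aim2: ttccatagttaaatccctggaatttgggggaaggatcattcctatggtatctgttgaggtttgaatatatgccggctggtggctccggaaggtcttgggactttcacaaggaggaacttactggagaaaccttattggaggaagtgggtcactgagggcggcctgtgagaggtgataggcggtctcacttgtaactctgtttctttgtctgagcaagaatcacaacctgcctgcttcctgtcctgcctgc
The Nlrp6 window holds 1 match to TTTAT, on the reverse strand, beginning 66 bases before the start, and no match to CAAAGTC. The Aim2 window holds neither run of letters. All 9 genes have an entry in the RefSeq table, with 11 windows in all since Casp4 and Nod1 have 2 each. TTTAT is present in 5 of the 11 windows and in 37.3% of all 32851 windows of this length. CAAAGTC is present in 1 of the 11, that of Nlrc4, and in 3.84% of all windows. A match is a description of the sequence and not a binding site.

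Nlrp6 encodes a sensor known for its expression in intestinal epithelium, including goblet cells. It stood at 78.2 and 76.3 FPKM in the controls and at 7.65 and 16.8 in libraries labelled double knockout. Both mutant values lay far below both controls, and the 2 mutant libraries differed 2.20-fold from each other, with replicate 2 the higher. The fall was 6.31-fold in FPKM and -2.66 ± 0.36 on the log2(FPKM + 1) scale (SE, limma, adjusted p = 0.0176), the 107th deepest of all genes tested counted from the lowest fold change. The authors' deposited table gives 76.9 FPKM in control and 12.1 in the knockout, with q = 0.000868. Leaving out a control ended the call, at a limma adjusted p of 0.0918 (replicate 1 dropped) or 0.104 (replicate 2 dropped), with log2 fold changes of -2.64 and -2.67. Without either mutant library the call was kept. The 6 goblet cell markers summed to 9015 and 9957 FPKM in controls against 8978 and 7643, and none was called, at a lowest limma adjusted p of 0.282. On the same scale the most abundant of them, Tff3, which makes up most of each sum, differed by -0.14 (limma, adjusted p = 0.8055). The others did not move together. Muc2 (-0.36) and Spdef (-0.20) lay below both controls in both mutant libraries, and Agr2 (0.40) lay above. For Clca3 (-1.14) and Fcgbp (0.16) the groups overlapped.

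Aim2 encodes a sensor of double-stranded DNA in the cytosol. It was scarce in controls, at 1.07 and 1.14 FPKM, and stood at 4.10 and 7.09 in libraries labelled double knockout. Both mutant values lay above both controls, which differed little from each other. The rise was 5.07-fold in FPKM and 1.61 ± 0.27 on the log2(FPKM + 1) scale, which understates changes at such low levels (SE, limma, adjusted p = 0.0309). The authors' deposited table gives 1.03 and 5.38 FPKM, with q = 0.000868. Dropping a control ended the call, at a limma adjusted p of 0.111 for replicate 1 and 0.126 for replicate 2. So did dropping double knockout replicate 2 (0.0790) and using no filter on low values (0.0687). Only the fit without double knockout replicate 1, among the 4 that left out a library, kept the call (limma, adjusted p = 0.0298).

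Nlrc4 encodes the adaptor-like sensor that NAIP proteins switch on when they bind bacterial flagellin or secretion system proteins. Nlrc4 (chromosome 17, 74825635 to 74858448, mm9) stood at 13.2 and 21.1 FPKM in controls and at 17.9 and 13.6 in libraries labelled double knockout. The groups overlapped, with the mutant values between those of the controls. The difference was -0.09 on the log2 scale, with a 95% interval of -0.80 to 0.61 (limma, adjusted p = 0.855), so a change of somewhat under a log2 unit in either direction stays within the interval.

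Pycard (chromosome 7, 135134887 to 135137381), the gene of the adaptor ASC, stood at 83.8 and 68.9 FPKM in controls and at 35.0 and 50.5 in libraries labelled double knockout. Both mutant values lay below both controls, but the difference of -0.84 (95% interval -1.44 to -0.23) did not pass over all genes (limma, adjusted p = 0.0938). The authors' deposited table does not call it either (q = 0.0669). None of the 12 alternatives brought it past the threshold, the lowest limma adjusted p being 0.0910.

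The 2 caspase genes neighbour each other on chromosome 9, Casp1 at 5298517 to 5307281 and Casp4 at 5308860 to 5336791 (mm9), with 1578 bases between them. Casp1 stood at 99.75 and 128.5 FPKM in controls and at 129.9 and 192 in libraries labelled double knockout. Its groups lay next to each other, since control replicate 2 and double knockout replicate 1 were nearly the same. The difference was 0.48, with a 95% interval of -0.20 to 1.15 (limma, adjusted p = 0.299). Casp4 was far scarcer, at 6.52 and 2.103 FPKM in controls and at 7.68 and 18.2 in libraries labelled double knockout. Both groups were wide: control replicate 2 was at 0.322 times control replicate 1, the mutant libraries differed 2.375-fold, and control replicate 1 lay close to double knockout replicate 1. Its mean went from 4.31 to 13.0 FPKM, a difference of 1.42 with a 95% interval of -0.03 to 2.87, and it was not called (limma, adjusted p = 0.185). Leaving out 1 library moved that difference from 0.78 (without control replicate 2) to 2.06 (without control replicate 1), with 0.84 and 1.99 without double knockout replicates 2 and 1, and no call. The authors' deposited table does call Casp4 (q = 0.00515), at 3.73 and 12.3 FPKM. Of the 9 genes that table calls Nlrp6, Aim2 and Casp4, beside 13.2% called of the 11594 rows it tested, 5.9% higher and 7.31% lower.

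Il18 (chromosome 9, 50373473 to 50389942) encodes the cytokine that caspase-1 matures, and it was the most abundant of the 9 genes in controls. It stood at 136 and 133 FPKM in controls and at 243 and 77.7 in libraries labelled double knockout. The controls lay close together, while 1 mutant library was above both and the other below both, 3.13-fold apart. The difference was 0.03, with a wide 95% interval of -1.36 to 1.42 (limma, adjusted p = 0.978). Its sign turned with the library left out. Dropping double knockout replicate 1 gave a log2 fold change of -0.78 and dropping replicate 2 of that group gave 0.85, neither of them called (limma, adjusted p = 0.123 and 0.125).

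Nod1 (chromosome 6, 54873936 to 54922606) and Nod2 (chromosome 8, 91171246 to 91212373) were the scarcest of the 9 genes in both groups. Nod1 stood at 1.065 and 0.782 FPKM in controls and at 0.817 and 0.891 in libraries labelled double knockout, with overlapping groups and a mean of 0.889 just under the filter of 1 FPKM. Aim2, with a mean of 3.35 FPKM and 1.10 in controls alone, was the tested gene nearest to it. Nod2 stood at 0.422 and 0.178 FPKM in controls and at 0.903 and 0.891 in libraries labelled double knockout. Both of its mutant values lay above both controls, and the mean was 2.99-fold higher. Groups were apart in 53.0% of all genes with a mean above 0. With no filter, where limma called 4.23% of 16711 genes, neither was called: the limma adjusted p was 0.862 for Nod1 and 0.101 for Nod2. The authors' deposited table calls neither (q = 0.933 and 0.103).

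**Figure D1:**
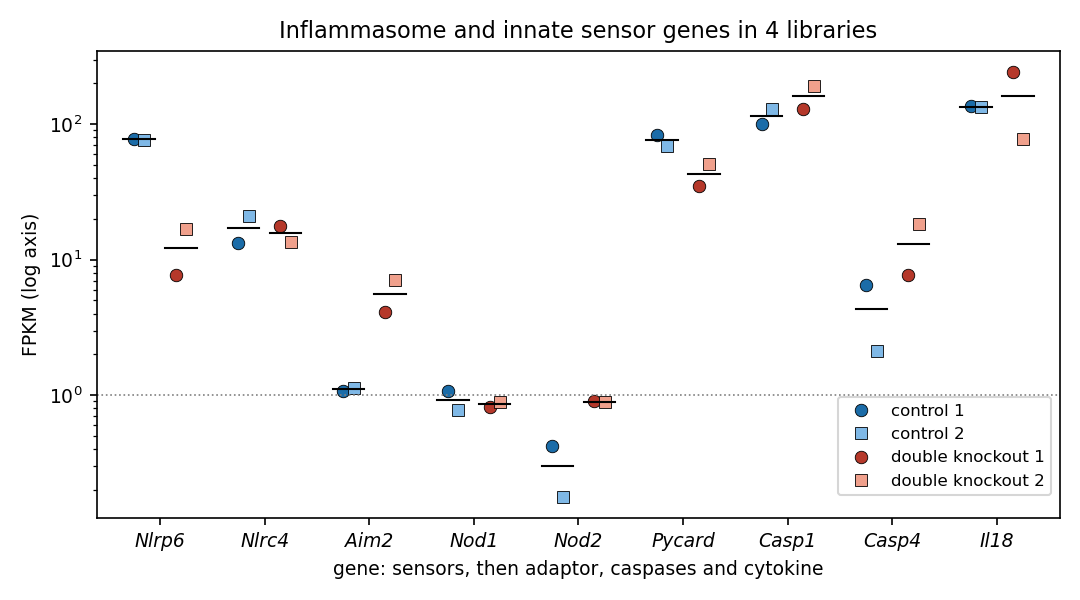
FPKM of the 9 genes on a log axis, with circles for replicate 1 and squares for replicate 2 of each group, short bars for group means and a dotted line at 1 FPKM. Nlrp6 drops from 78.2 and 76.3 to 7.65 and 16.8, Aim2 climbs from 1.07 and 1.14 to 4.10 and 7.09, and the 2 mutant values of Il18, 243 and 77.7, lie on either side of the controls.

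In controls the order of the mean levels was Il18 (134), Casp1 (114), Nlrp6 (77.2), Pycard (76.4), Nlrc4 (17.2), Casp4 (4.31), Aim2 (1.10), Nod1 (0.924) and Nod2 (0.300 FPKM). Of these neighbours only Nlrp6 and Pycard had overlapping ranges. In the libraries labelled double knockout the order was Casp1 (161), Il18 (160.4), Pycard (42.7), Nlrc4 (15.7), Casp4 (13.0), Nlrp6 (12.2), Aim2 (5.60), Nod2 (0.897) and Nod1 (0.854 FPKM). There the ranges of Casp1 and Il18 overlapped, as did those of Nlrc4 and Casp4 and of Casp4 and Nlrp6. Nlrp6 was thus at the level of its adaptor gene Pycard in controls and below it in the mutant libraries.

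**Figure D2:**
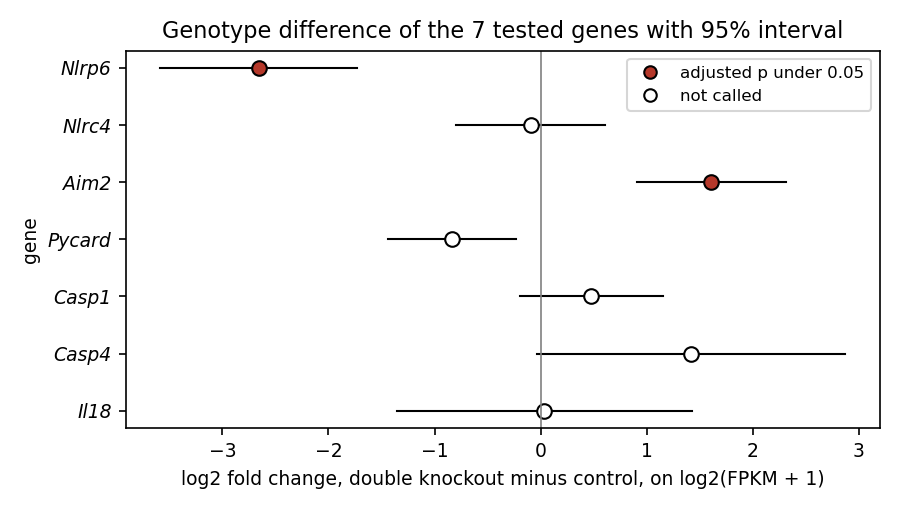
Log2 fold change of the 7 tested genes on log2(FPKM + 1), double knockout minus control, with lines for the 95% interval from limma. The filled points are Nlrp6 (-2.66) and Aim2 (1.61), and the intervals of Nlrc4, Casp1, Casp4 and Il18 include 0.

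Related genes were taken from 6 lists with 95 entries, all of which were found, 3 of them in rows that join symbols. Of these 61 were tested, 4 were called higher and 3 lower, beside 9.57% of all genes tested, and the median log2 fold change was 0.09. The 4 that rose were Nek7, Ripk3, Tirap and Cd14, and the 3 that fell were Nlrp9b, Naip5 and Mavs. The authors' deposited table calls all 7 and 18 others, 25 of the 66 related rows it tested, with 17 higher and 8 lower in the knockout. Of all 11594 rows it tested, that table calls 13.2%, with 5.9% higher and 7.31% lower. Of those 18, 17 were tested by limma and not called, and 1 lay under the filter. Apart from the 7 and the most abundant gene of each list by the mean over the 4 libraries, the related genes named below were chosen after their values were seen.

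Other inflammasome sensors and their helpers held 7 tested genes of 12, with 2 called lower, 1 higher and a median of -0.94. Naip5, whose protein binds flagellin and activates NLRC4, stood at 49.0 and 45.0 FPKM in controls and at 16.7 and 20.7 in libraries labelled double knockout, a difference of -1.29 ± 0.17 (SE, limma, adjusted p = 0.01735). Both mutant values lay below both controls. The NAIP genes are related neighbours on chromosome 13, and reads could be split among them, so their single levels are uncertain. Naip1 had 21.7 and 35.3 against 18.2 and 8.32 FPKM, Naip2 24.3 and 34.8 against 25.4 and 21.1, and the row that joins Naip6 and Naip7 32.0 and 41.7 against 16.4 and 21.0. None of these was called (limma, adjusted p = 0.170, 0.419 and 0.0602), while the authors' deposited table calls Naip1 (q = 0.0119) and the joined row (q = 0.0274). Nlrp9b, a sensor known from intestinal epithelium, stood at 19.7 and 11.3 against 3.72 and 5.45 FPKM. That fall of 3.38-fold passed narrowly (limma, adjusted p = 0.0497), and Nlrp9b kept its call in only 2 of 12 alternatives. The call ended when any 1 library was dropped, with log2 fold changes from -1.91 to -1.155. Median centring and quantile normalization of the values also ended it (limma, adjusted p = 0.0513 and 0.0506).

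Nek7, a kinase that NLRP3 needs to assemble, stood at 2.31 and 3.62 FPKM in controls and at 10.4 and 10.5 in libraries labelled double knockout, 3.52-fold higher (limma, adjusted p = 0.0188). Nlrp3 itself did not exceed 0.0562 FPKM in any library. Dropping any 1 library ended the call of Nek7 (limma, adjusted p from 0.0501 to 0.0919). For Naip5 dropping a control, or replicate 1 of the mutant group, did so (up to 0.0866).

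Genes of lytic cell death held 10 tested of 13, with 1 called higher. Ripk3, the kinase of necroptosis, rose from 12.8 and 13.5 to 50.9 and 48.4 FPKM, 3.77-fold, with both groups tight (log2 fold change 1.84 ± 0.14, SE, limma, adjusted p = 0.00600). It kept its call in 11 of 12 alternatives and reached 0.0503 without control replicate 1. Mlkl, the pore former downstream of it, had 4.79 and 6.13 against 9.51 and 38.6 FPKM, and Zbp1, a nucleic acid sensor that can engage RIPK3, 6.89 and 10.9 against 18.2 and 118. Both were above the controls in each mutant library, with replicate 2 far higher than replicate 1, and neither was called (limma, adjusted p = 0.168 and 0.165). The authors' deposited table calls both (q = 0.000868 each). With all 4 libraries their log2 fold changes were 1.67 and 2.31. Without double knockout replicate 1, which leaves the higher mutant library alone, they were 2.62 and 3.63. Gsdmd, the pore former that caspase-1 and caspase-11 cut, had 221 and 230.0 against 208 and 116 FPKM (limma, adjusted p = 0.3195). Casp8, an initiator caspase, had 54.4 and 65.1 against 93.1 and 99.4 FPKM (limma, adjusted p = 0.0729).

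Gsdmc4 had the highest mean of that list over the 4 libraries, through control replicate 2 alone, since Gsdmd was higher in the other 3. It had 60.0 and 738 FPKM in the 2 controls and 48.4 and 15.5 in libraries labelled double knockout. Its relatives Gsdmc2 and Gsdmc3 had 34.2 and 392, and 11.1 and 117, in the controls, against 50.2 and 11.7, and 3.93 and 0.966. In all 3 control replicate 2 was at least 10-fold above control replicate 1, which held for 0.423% of all genes tested. None was called (limma, adjusted p from 0.117 to 0.324), although the authors' deposited table calls all 3 lower (q = 0.000868 each), and reads may be shared within this family.

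The interleukin-1 family list held 5 tested genes of 12, and limma called none, with 2 higher and 0 lower at an unadjusted p under 0.05, which 28.3% of all genes tested reached. The 2 were antagonists, and 1 of them, Il1rn, reached the filter only through the mutant libraries (means of 0.733 FPKM in controls and 7.05 in mutants). Il18bp, the soluble inhibitor of interleukin-18, stood at 1.89 and 1.92 FPKM in controls and at 6.30 and 17.9 in libraries labelled double knockout (limma, adjusted p = 0.0623). Il1rn, the receptor antagonist, stood at 0.239 and 1.23 against 3.43 and 10.7 FPKM (limma, adjusted p = 0.0796). In both the groups were apart. The authors' deposited table calls both (q = 0.000868 each). The replicate block called Il1rn. With all 4 libraries the log2 fold changes were 2.016 for Il18bp and 2.115 for Il1rn. Without double knockout replicate 1, which leaves the higher mutant library alone, they were 2.70 and 2.81. Il33 had the highest mean of the list over the 4 libraries, at 15.7 FPKM against 14.9 for Sigirr. In control replicate 1 and double knockout replicate 2 Il33 lay below Sigirr. Il33 had 13.1 and 19.8 against 27.6 and 2.35 FPKM, with mutant values on either side of the controls as for Il18. Its log2 fold change was -0.81 with all 4 libraries, -2.355 without double knockout replicate 1 and 0.74 without replicate 2 of that group. Il1b did not exceed 1.53 FPKM, and Il18r1, which encodes a chain of the interleukin-18 receptor, did not exceed 0.661.

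The NOD signalling list held 17 tested genes of 19 and limma called none, with 5 higher and 2 lower at an unadjusted p under 0.05, beside the same 28.3% of all genes tested. Of those 5, Nlrx1 reached the filter only through the mutant libraries (means of 0.836 FPKM in controls and 2.84 in mutants). Ripk2, the kinase both NOD proteins use, was scarce at 1.79 and 1.60 against 1.78 and 1.16 FPKM (limma, adjusted p = 0.723). Nfkbia, the NF-kappaB inhibitor, had the highest mean of the list over the 4 libraries, though Erbb2ip (68.5) and Chuk (60.5 FPKM) were above it in controls. It had 50.3 and 39.8 against 111 and 75.8 FPKM, with the groups apart (limma, adjusted p = 0.0707), and the authors' deposited table calls it (q = 0.0155).

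The Toll-like receptor list held 12 tested genes of 23, of which 2 rose. Tirap, an adaptor of surface Toll-like receptors, stood at 2.76 and 3.79 against 9.13 and 7.86 FPKM, and Cd14, a co-receptor for lipopolysaccharide, at 3.35 and 4.27 against 10.5 and 7.86 (limma, adjusted p = 0.0325 and 0.0455). Neither call survived the loss of any 1 library, with maxima of 0.133 and 0.164. Tlr4 and Tlr5 did not exceed 0.324 and 0.628 FPKM. Irak2, with the highest mean of the list over the 4 libraries but just below Myd88 (26.0 against 26.2 FPKM) in the mutant ones, had 26.2 and 29.2 against 28.5 and 23.5 (limma, adjusted p = 0.7575).

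In the list of nucleic acid sensing 10 of 16 genes were tested, and Mavs, the mitochondrial adaptor of RNA sensors, fell from 37.4 and 41.1 to 21.7 and 20.6 FPKM (limma, adjusted p = 0.0333), a call that ended when any 1 library was dropped (up to 0.132). Irf7, with the highest mean of the list, had 69.1 and 68.1 FPKM in controls and 67.0 and 336 in libraries labelled double knockout. Dhx58, an RNA helicase, had 2.78 and 2.50 against 3.07 and 56.6. Neither was called (limma, adjusted p = 0.383 and 0.330), while the authors' deposited table calls both (q = 0.00354 and 0.000868). Without double knockout replicate 1, which leaves the higher mutant library alone, their log2 fold changes were 2.28 and 3.985. Without replicate 2 of that group the log2 fold change of Irf7 was -0.033. In 6 of the 10 tested genes double knockout replicate 2 was at least 2-fold above replicate 1, against 3.63% of all genes tested. The same held for 2 of the 7 tested inflammasome and sensor genes, Nlrp6 and Casp4, while Il18 was at least 2-fold higher in replicate 1, as were 3.23% of all genes tested.

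**Figure D3:**
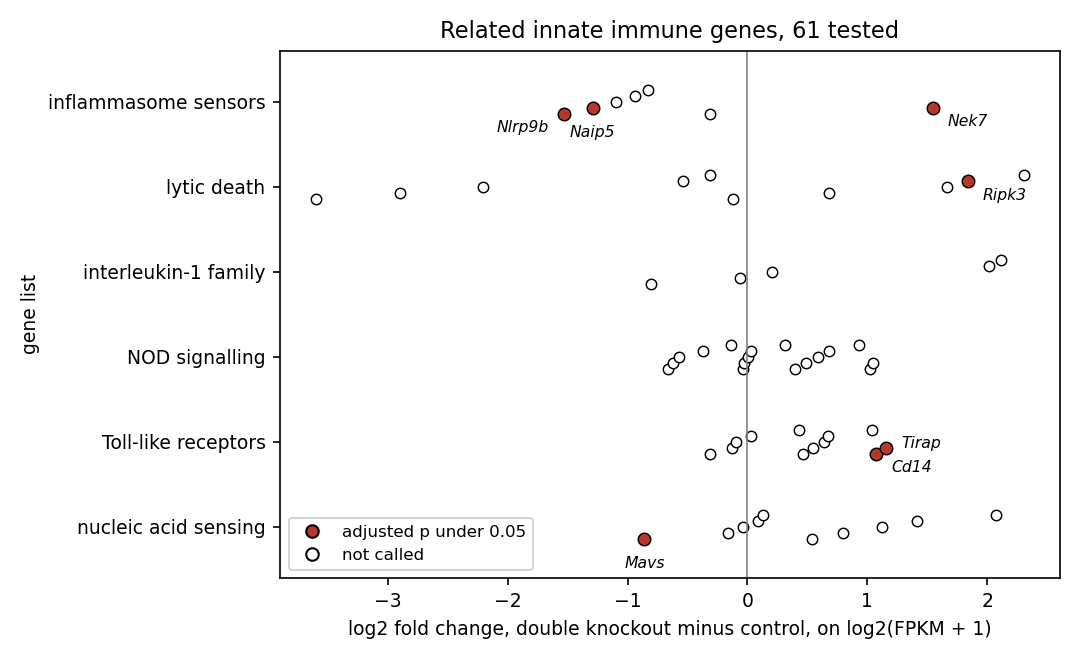
Log2 fold change on log2(FPKM + 1), double knockout minus control, of the 61 tested genes of the 6 related lists, 1 row per list, with a slight vertical offset to part the points. The 7 filled points are the called genes, 4 above 0 and 3 below, and the 3 open points farthest to the left are Gsdmc3, Gsdmc4 and Gsdmc2.

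Markers of other cell types were low but not equal between libraries. The 10 markers of T cells and intraepithelial lymphocytes summed to 75.9 and 92.7 FPKM in controls and to 62.0 and 178 in libraries labelled double knockout. In every library most of that sum was 2 granzyme genes, with Gzma at 107 and Gzmb at 44.1 in double knockout replicate 2. Cd3e, Cd3d, Cd3g, Cd247, Cd4 and Cd8a were also highest in that library, with Cd247 and Cd4 under 1 FPKM throughout. Cd3g had 5.17 and 4.91 against 4.52 and 8.57 FPKM, and Cd8a 3.58 and 3.28 against 2.66 and 4.17. Ptprc and Itgae were highest in control replicate 2. Among the 4 libraries double knockout replicate 2 held the highest values of Casp1, Casp4 and Aim2 and the lowest of Il18. For the rest of the 9 genes it lay in between. The 12 macrophage and dendritic cell markers summed to 15.1 and 45.8 FPKM in controls and to 7.49 and 10.2 in libraries labelled double knockout. Lyz2 made up most of the control sums, at 8.599 and 34.8 FPKM in controls against 1.86 and 2.66, and 5 of the 12 were under 1 FPKM in every library. In that list Itgam was called lower and Mrc1 higher (limma, adjusted p = 0.0410 and 0.01755). Itgam had 2.23 and 2.765 FPKM in controls against 0.706 and 0.55, and Mrc1 0.096 and 0.266 against 2.91 and 2.385. Each reached the filter only through the group where it was higher. Without the filter Itgam was not called and Mrc1 still was (limma, adjusted p = 0.0515 and 0.0257). The 7 neutrophil markers found summed to 1.12 and 7.76 against 0.466 and 0.778 FPKM, with Mpo and Elane listed at 0 throughout. The 6 B cell and plasma cell markers did not exceed a sum of 4.52 FPKM per library, nor the 7 of stroma and endothelium 7.10. The part of these cells in the levels above was not tested.

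**Figure D4:**
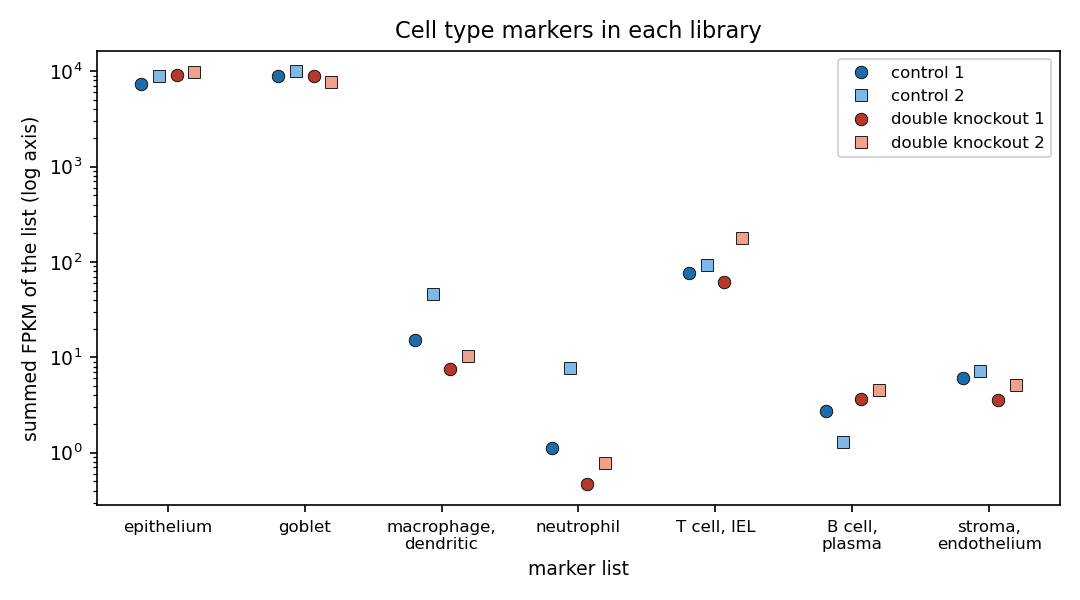
Summed FPKM of 7 marker lists on a log axis, 1 point per library (IEL, intraepithelial lymphocyte). Epithelial and goblet cell sums are at least 7358 and 7643 in every library, the T cell sum reaches 178 in double knockout replicate 2, and the macrophage and neutrophil sums reach 45.8 and 7.76 in control replicate 2.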

How the data were processed

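Per the labels' protocols, epithelium was loosened from jejunum at 4 °C (5 mM EDTA, 45 minutes). TRIzol and RNeasy yielded the RNA, which went into TruSeq libraries sequenced from 1 end over 75 bases; whether strand was kept is not stated. The submitters' processing notes list, without roles, the mm9 build, Cuffdiff, Cuffnorm, Cufflinks (2.1.1) and TopHat2 (2.0.9). The main deposited table has 23735 rows and a column for each library; its values, made by the authors, were taken as FPKM normalized between libraries although its header names no unit. The authors also deposited 1 file of FPKM per library (24460 rows). Their deposited comparison table holds group FPKM, p-values and q-values per the file headers; its direction was taken from the group values.

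Rows of 1 symbol were summed and short RNA symbols (Mir, Snor, Scarna) left out. Tests covered genes averaging 1 FPKM or more, and were run with limma (version 3.58.1, R version 4.3.3), two-sided, on log2(FPKM + 1), with genotype as the only term, an intensity trend and Benjamini-Hochberg adjustment over all 10883 genes tested. All adjusted p-values are from limma. An exact permutation test of 2 against 2 cannot give a p under 0.333. The procedure was checked on simulated data. P-values measure only the spread between these libraries. Relative depth was read from pairs of values under 0.1 FPKM, whose ratios step in whole-number multiples (85.35% to 88.72% of pairs within 0.01 on the log2 scale of a ratio of whole numbers up to 6). Absolute depth is unknown, so no counting error is given.

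The genes, the lists of related genes and of markers (from textbook knowledge) and the rule for naming genes were chosen with earlier results of these data known. Named were the 9 genes, Hnf4a and Cdx2, the called genes of each related list (at most 4 per direction) with its most abundant gene, and the most abundant marker of each list. The other related genes and markers in the text were chosen after their values were seen. The most abundant markers were Krt8, Tff3, Lyz2, S100a9, Gzma, Igj and Vim. No set test was run. The alternatives changed the pseudocount, the filter, the scaling, the source of the FPKM and the variance model, added a replicate block, or left out each library. Strand, overlapping genes and joined rows can blur single levels.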

Additional observations from a re-analysis of the deposited data

How the results depend on the processing

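With 2 libraries a group, the calls depended most on which libraries were used. Leaving out 1 library gave 171 to 693 genes called against 1041, from 0 to 1 of the inflammasome and sensor genes called higher and 0 to 1 called lower, and from 0 to 11 related genes called higher and 0 to 1 lower. The 11 higher were without double knockout replicate 1. In these fits the lone library of a group is assumed to vary like the other group. With no filter on low values limma called 0 of the inflammasome and sensor genes higher, although 2 had an unadjusted p under 0.05, as did 22.8% of all 16711 genes in either direction, and 1 related gene higher. With a mean of at least 5 FPKM required, 0 were called higher, and 0 had an unadjusted p under 0.05, because Aim2 was then not tested. FPKM of each library alone gave 1 related gene called lower. The replicate block also gave 1 called lower, with 786 genes called in all and Nlrp6 and Aim2 still among them (limma, adjusted p = 0.0221 and 0.0405). It added Il1rn and ended the calls of Nlrp9b, Tirap, Cd14 and Mavs (limma, adjusted p = 0.0766, 0.0618, 0.0800 and 0.0732). Same-numbered libraries did not deviate together (r = -0.0048 across 10883 genes, which are not replicates), so the numbers were not taken as pairs.

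Signs turned for 7 named genes that were not called with all 4 libraries. Leaving out 1 library at a time moved the log2 fold change from -0.41 to 0.23 for Nlrc4, from -0.78 to 0.85 for Il18, from -2.35 to 0.74 for Il33, from -0.23 to 0.039 for Irak2, from -0.033 to 2.28 for Irf7, from -0.37 to 0.092 for Tff3 and from -0.41 to 1.16 for Gzma. For Il33, Irak2, Irf7, Tff3 and Gzma it turned when double knockout replicate 2 was left out, and for Il18 when replicate 1 of that group was. For Nlrc4 it turned without control replicate 2 (0.23) or without double knockout replicate 2 (0.089). FPKM of each library alone gave 0.064 for Nlrc4, 0.044 for Irak2 and 0.0058 for Tff3. The cause was not tested. Over the named genes 267 of the recomputed values kept their direction and side of the threshold, 49 lost the call, 4 gained it and 11 turned. Nlrp6 kept its call in 10 of 12 alternatives and Aim2 in 7 of 11. Of the related genes Ripk3 kept it in 11 of 12, Naip5 in 9, Nek7 in 7, Tirap and Mavs in 6, Cd14 in 5 and Nlrp9b in 2. The unknown depth limits what can be said of Nod1 and Nod2.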
